A study of Mus musculus with 7 samples.

Results

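*Tspoap1* and 5 of its neighbours on mouse chromosome 11, *Mtmr4*, *Hsf5*, *Rnf43*, *Lpo* and *Mks1*, were followed in lineage-depleted (lin-) bone marrow cells of *HRP-2* wild type and knockout mice. They are 6 of the 25033 gene symbols in the count tables. *Tspoap1* was selected on its scaled read counts, which were higher in the knockout mice of this same comparison, so its own difference is given as a description with no test. The 5 neighbours were named from the same stretch of chromosome with earlier results of these data known. They are not its 5 nearest genes, so every other gene of the count tables starting within 500 kb of *Tspoap1* was added by position alone. The question was whether the higher level of *Tspoap1* stood alone or was shared by the genes around it.

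The lin- cells, a progenitor-enriched fraction, were isolated from red blood cell lysed femur and tibia marrow of mice 6 to 8 weeks old. Wild type mice (labelled Hrp2+/+) gave 3 libraries and knockout mice gave 4. The labels number them as replicates, and the paper's heat map shows each animal as its own row. The knockouts carried the systemic allele Hdgfrp2<tm1b (KOMP)Wtsi> on C57BL/6N, and they were animals that had survived to weaning from a line in which fewer knockouts than Mendelian inheritance predicts were found. No treatment was given, and the labels do not give the sex of any mouse.

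RNA was read with QuantSeq, which primes at the poly(A) tail and gives about 1 fragment per transcript whatever its length, and levels are given as counts per 1000000 reads (CPM) of libraries scaled with TMM factors. The libraries held 3525665 to 5605158 reads on genes, so that 3 reads, the limit that a count of 0 allows, corresponded to 0.559 to 0.838 CPM. Such limits cover counting error only. The deleted gene, listed as *Hdgfl2* on chromosome 17, had 156 to 228 reads in the wild type mice and 2 to 13 in the knockouts (log2 fold change -5.09 ± 0.34 (SE), adjusted p = 1.38e-07, edgeR quasi-likelihood test). Progenitor markers were present, with *Kit* at 111.7 and *Cd34* at 225.8 CPM on average in the wild type mice, and of 11 erythroid markers 8 passed the filter, with a summed level of 362.8 to 648.0 CPM in the wild type and 359.4 to 577.6 CPM in the knockout mice, while the globin genes *Hba-a1*, *Hbb-bs* and *Hbb-bt* had no read. Knockout 3 stood apart, since *Xist* was at 0.559 CPM there while the remaining 6 mice ranged from 228.5 to 302.0 CPM. *Ddx3y* reached 104.2 CPM in knockout 3, against 0 to 0.775 CPM in the other mice. By these sex-linked transcripts knockout 3 read as male and the others as female. The ribosomal transcript *Rn45s* took 9.43 to 20.6% of the reads in the wild type and 4.94 to 18.6% in the knockout mice.

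*Tspoap1* encodes TSPO-associated protein, also called RIM-BP1, a large scaffold with SH3 and fibronectin type III domains. It was named for binding TSPO, the translocator protein of the outer mitochondrial membrane. In neurons the RIM-binding proteins link the vesicle-tethering RIM proteins to voltage-gated calcium channels at the active zone. The stretch of chromosome around it also holds the peroxidase genes *Mpo*, *Epx* and *Lpo*, of which *Mpo* is among the most abundant transcripts of neutrophil precursors.

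*Tspoap1* (ENSMUSG00000034156.16) lies at chr11:87760541-87785928 on the plus strand of GRCm38, and no other annotated gene overlaps it. It received 556, 326 and 334 reads in wild type mice 1 to 3 and 1065, 1130, 1032 and 1109 reads in knockout mice 1 to 4. Its level was 121.7, 91.1 and 88.5 CPM in the wild type mice and 206.5, 234.2, 192.4 and 275.6 CPM in the knockouts. All 4 knockouts were above all 3 wild type mice, as was so for 2.37% of all genes tested. Between the highest wild type and the lowest knockout lay a gap of 70.7 CPM, a ratio of 1.58. The means were 100.4 ± 18.5 CPM (SD, n = 3) and 227.2 ± 36.7 CPM (SD, n = 4). The fitted log2 fold change was 1.17 ± 0.16 (SE), a 2.26-fold higher level with a 95% interval of 1.78 to 2.86. Since *Tspoap1* was chosen for this difference, the fold change may be overstated, and the interval need not keep its coverage and is no test. The spread within a genotype, 18.4% of the mean in the wild type and 16.2% in the knockouts, holds variation between mice and between library preparations, which cannot be told apart here. The counting error was 2.97 to 5.54%. These are bulk libraries, in which more cells that transcribe a gene and more RNA per cell cannot be told apart.

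The transcript was not a rare one. Its mean level was above that of 91.2% of the 11265 genes that passed the filter on low counts. Without knockout 3, the library that stood apart, the log2 fold change was 1.25 ± 0.16 (SE). Wild type 1 was the highest of its group, and without it the log2 fold change was 1.35. It was lower, at 1.09, without wild type 3 and, at 1.07, without knockout 4.

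**Figure D1:**
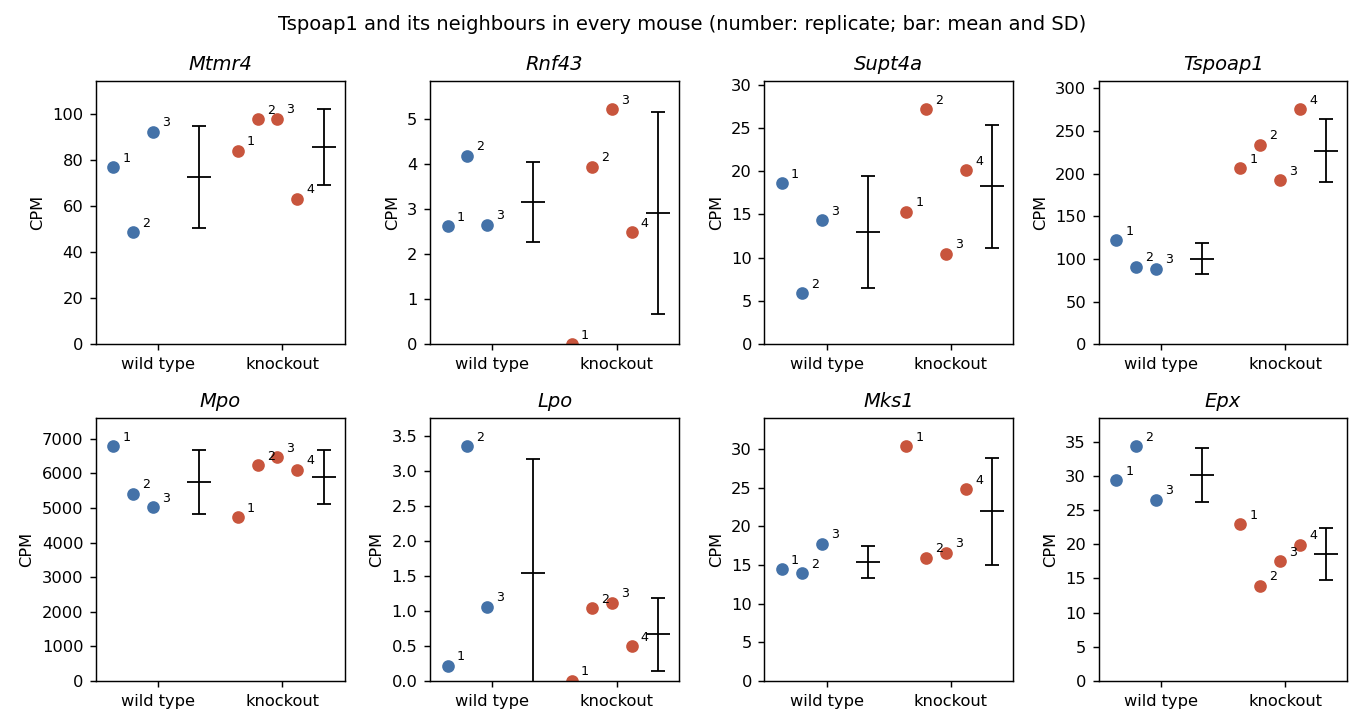
Level in CPM (vertical axis, linear) of *Tspoap1*, 4 of its 5 chosen neighbours and the adjoining genes *Supt4a*, *Mpo* and *Epx* in each of the 3 wild type (blue) and 4 knockout (red) mice, ordered as on the chromosome. Numbers give the replicate, and the black bars the mean and SD, cut off at 0 for *Lpo*. *Tspoap1* ran from 88.5 to 121.7 CPM in the wild type and from 192.4 to 275.6 CPM in the knockouts, while the knockouts of *Epx* lay below its wild type mice and both genotypes overlapped for the other 6 genes.

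The nearest gene in the direction of transcription was *Mpo*, myeloperoxidase of the primary granules, at chr11:87793581-87804413 on the plus strand, 7652 bases beyond the end of *Tspoap1*. It stood at 6793, 5410 and 5027 CPM in the wild type mice and 4735, 6230, 6468 and 6105 CPM in the knockouts. The lowest of the 7 values was a knockout and the highest a wild type. The means, 5743 ± 929 (SD, n = 3) and 5884 ± 781 CPM (SD, n = 4), differed by less than the spread between mice (log2 fold change 0.035, 95% interval -0.27 to 0.34, exact permutation p = 0.83, two-sided).

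Because both genes were counted in the same library, their ratio does not depend on how libraries were scaled. *Tspoap1* reads amounted to 1.79, 1.68 and 1.76% of *Mpo* reads in the wild type mice. In the knockouts they amounted to 4.36, 3.76, 2.97 and 4.51%. The 3 wild type ratios lay close together although *Mpo* itself varied among these mice, and the lowest knockout ratio was above all of them. Since *Tspoap1* was chosen for its level in these mice, the ratio carries no test either.

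Upstream, the nearest protein-coding gene was *Supt4a*, a subunit of the elongation factor DSIF, which ends 16917 bases before *Tspoap1*. It stood at 18.6, 5.87 and 14.3 CPM in the wild type and 15.3, 27.2, 10.4 and 20.1 CPM in the knockout mice. The genotypes overlapped (log2 fold change 0.48 ± 0.37 (SE), 95% interval -0.31 to 1.27, exact permutation p = 0.314). *Tspoap1* gave 6.54, 15.5 and 6.19 reads per *Supt4a* read in the wild type mice and 13.5, 8.63, 18.4 and 13.7 in the knockouts. Here the genotypes overlapped, since wild type 2, the lowest for *Supt4a*, had a ratio exceeded by knockout 3 alone. Between the 2 genes lie the microRNA entries *Mir142* and *Mir142b*, precursors of a microRNA abundant in blood cells. *Mir142* had no read in any mouse, and *Mir142b* had 98 reads in all (log2 fold change 0.47, 95% interval -0.73 to 1.67). The host transcript *Mir142hg* overlaps both and ends 3270 bases before *Tspoap1*, so the reads given to *Mir142b* are uncertain.

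**Figure D2:**
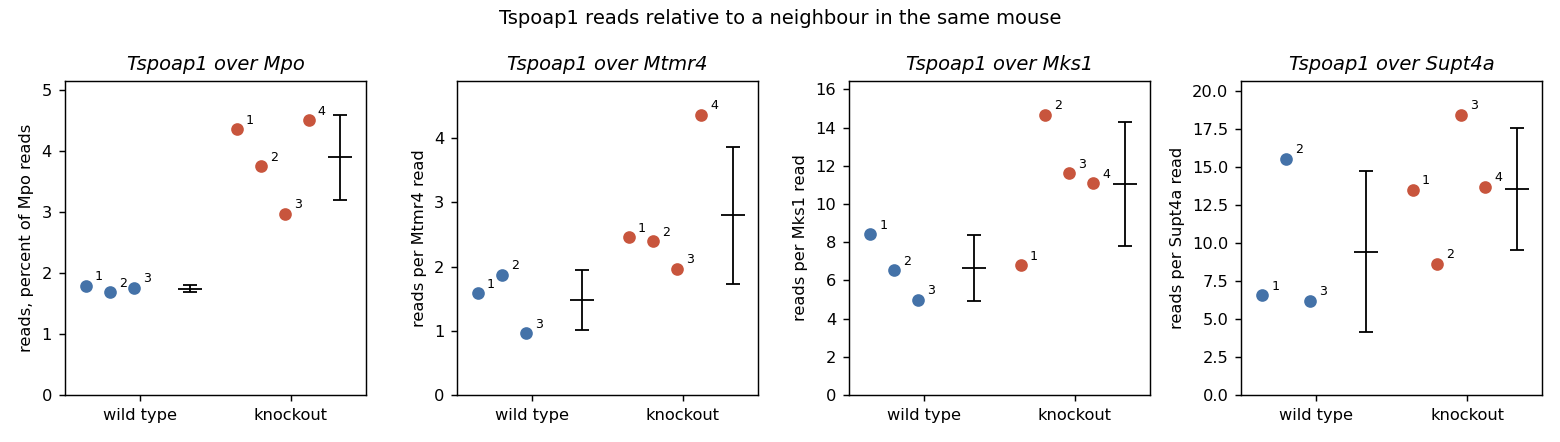
Reads of *Tspoap1* relative to those of *Mpo* (in percent), *Mtmr4*, *Mks1* and *Supt4a* (reads per read) in the same mouse, on linear axes, for 3 wild type (blue) and 4 knockout (red) mice, with replicate numbers and black bars for the mean and SD. All 4 knockouts exceeded the wild type mice relative to *Mpo* and *Mtmr4*, 3 of 4 did relative to *Mks1*, and 1 of 4 did relative to *Supt4a*.

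*Mks1* (ENSMUSG00000034121.12, chr11:87853215-87863803, plus strand), a component of the ciliary transition zone that is mutated in Meckel syndrome, was the neighbour with the highest fold change. Its promoter is shown because *Mks1* had the most reads among the chosen neighbours in the RefSeq table for GRCm38.p6, and that of *Mpo* because it is the next promoter after *Tspoap1*. Of the 6 genes, 4 matched the table, *Mks1*, *Lpo*, *Rnf43* and *Hsf5*. Each window runs from 250 bases before to 50 after the start site, at chr11:87852965-87853264 for *Mks1* and chr11:87793534-87793833 for *Mpo*, both on the plus strand and 5′ to 3′. Capitals mark a match to the X-box (GTTGCC, 2 bases of any kind, then GGNAAC) in *Mks1* and to the PU.1 motif GAGGAAGT in *Mpo*.
Mks1: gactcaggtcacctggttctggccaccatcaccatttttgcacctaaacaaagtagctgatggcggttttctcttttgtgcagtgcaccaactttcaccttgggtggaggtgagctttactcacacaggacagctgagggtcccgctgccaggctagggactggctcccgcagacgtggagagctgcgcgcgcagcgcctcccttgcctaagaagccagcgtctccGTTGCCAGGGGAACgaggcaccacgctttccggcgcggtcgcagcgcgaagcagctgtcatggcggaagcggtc
Mpo: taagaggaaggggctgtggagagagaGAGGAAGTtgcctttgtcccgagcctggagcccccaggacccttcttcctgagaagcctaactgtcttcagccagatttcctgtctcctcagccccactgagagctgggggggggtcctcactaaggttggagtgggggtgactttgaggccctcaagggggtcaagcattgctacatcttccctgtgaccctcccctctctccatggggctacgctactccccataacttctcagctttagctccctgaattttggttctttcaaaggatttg
The X-box, the element read by RFX factors at ciliary genes, began 24 bases before the *Mks1* start site and occurred, on either strand, in 98 of 32851 promoters (0.298%). The PU.1 motif, of a factor of myeloid cells, began 224 bases before the RefSeq start site of *Mpo* and occurred in 3.2% of promoters. That start site lies beyond the gene start at chr11:87793581 given above, so most of the *Mpo* window falls inside the gene as placed there. The *Mks1* window held 20 CG dinucleotides and 60.7% G and C, and the *Mpo* window 2 CG dinucleotides and 55.3%, against medians of 7 and 52.7% over all promoters. A CCAAT box (37.4% of promoters), a TATAAA element (13.6%) and a GC box GGGCGG (35.7%), also searched on both strands, had no match in these 2 windows or in those of *Lpo* and *Rnf43*, while the *Hsf5* window held a CCAAT box and a GC box. The motifs were chosen after the sequences had been seen and describe letters only.

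*Mks1* stood at 14.4, 14.0 and 17.8 CPM in the wild type mice. In the knockouts it stood at 30.4, 16.0, 16.6 and 24.9 CPM, with 77 to 157 reads. Knockouts 1 and 4 were above all wild type mice, while knockouts 2 and 3 lay among them. The means were 15.4 ± 2.07 (SD, n = 3) and 22.0 ± 6.95 CPM (SD, n = 4). The log2 fold change of 0.51 ± 0.27 (SE) did not pass the test (p = 0.0719, adjusted p = 0.999, edgeR; exact permutation p = 0.200), and its 95% interval was -0.05 to 1.07. Without knockout 1 it was 0.31. Without knockout 2 it was 0.64 and without knockout 3 it was 0.63 (edgeR, unadjusted p = 0.0338 and 0.0353), and neither passed the adjusted threshold. Relative to *Mks1*, *Tspoap1* gave 8.42, 6.52 and 4.99 reads per read in the wild type and 6.78, 14.7, 11.6 and 11.1 in the knockout mice, so that knockout 1 fell within the wild type range.

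*Mtmr4* (ENSMUSG00000018401.17, chr11:87592162-87616302, plus strand), an endosomal phosphoinositide phosphatase of the myotubularin family, has its start at -168.4 kb from that of *Tspoap1*. It stood at 76.8, 48.6 and 92.2 CPM in the wild type mice and at 83.9, 97.6, 97.9 and 63.1 CPM in the knockouts. The genotypes overlapped, with wild type 2 lowest and knockout 4 next. The means of 72.5 ± 22.1 (SD, n = 3) and 85.6 ± 16.4 CPM (SD, n = 4) differed by less than this spread (log2 fold change 0.24 ± 0.21 (SE), 95% interval -0.19 to 0.67, adjusted p = 0.999, edgeR; exact permutation p = 0.400). Without wild type 2 the log2 fold change was 0.023, and without wild type 3 it was 0.45. The ratio of *Tspoap1* to *Mtmr4* reads was 1.58, 1.87 and 0.960 in the wild type mice and 2.46, 2.4, 1.97 and 4.37 in the knockouts, without overlap.

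The other 3 neighbours were barely read. *Rnf43* (ENSMUSG00000034177.15, chr11:87662722-87735539, plus strand), a ubiquitin ligase that removes Frizzled receptors from the cell surface, had 12, 15 and 10 reads in the wild type and 0, 19, 28 and 10 in the knockout mice, or 2.63, 4.19 and 2.65 CPM against 0, 3.94, 5.22 and 2.49 CPM. The genotypes overlapped, and the knockouts held both the lowest and the highest value. The log2 fold change of -0.10 ± 0.75 (SE) had a 95% interval of -1.70 to 1.49 (exact permutation p = 0.771), so a rise or a fall of 2 times could not be told from none. Its sign turned to 0.32 without knockout 1 and to 0.15 without wild type 2. *1110028F11Rik* lies inside *Rnf43* on the same strand and was counted apart from it, at 8.27 CPM in the wild type and 8.0 CPM in the knockouts on average.

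*Lpo* (ENSMUSG00000009356.12, chr11:87806428-87828289, minus strand), lactoperoxidase of secretory glands, had 30 reads in the 7 mice together and did not pass the filter. The reads numbered 1, 12 and 4 in the wild type and 0, 5, 6 and 2 in the knockout mice, so that wild type 2 held the most. In a fit without the filter its log2 fold change was -1.15 ± 1.16 (SE), with a 95% interval of -3.44 to 1.13 (exact permutation p = 0.429), and without wild type 2 it was 0.084. *Hsf5* (ENSMUSG00000070345.3, chr11:87617164-87659542, plus strand), a heat shock factor of the male germ line, had 0 reads in all 7 mice, which allows a level of up to 0.559 to 0.838 CPM per library. Thus, of the 6 genes, 4 passed the filter, and the genotypes overlapped for the 3 neighbours among them.

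Next, all genes around *Tspoap1* were considered, with *Tspoap1* itself left out. Of 43 other annotated genes starting within 500 kb of its start site, 23 were in the count tables. Of these 23, 5 had no read, among them *Hsf5*, *Mir142* and 3 olfactory receptor genes, and 16 passed the filter. Of these 16, 7 were higher and 9 lower in the knockouts. An adjusted p of 0.25 (the threshold of the study) was passed by 0, compared with 0.0178% of all genes tested (edgeR quasi-likelihood test, smallest adjusted p = 0.999). The 2 genes called over all genes were *Hdgfl2* and *Tspoap1* itself, so a count of 0 here says little about the locus. At an unadjusted p under 0.05 there were 2, *Epx* and *Rad51c*, both lower, against 3.63% of all genes. Over the other settings and with each mouse left out this number lay between 1 and 3. *Mks1*, higher, was among the 3 found without knockout 3. DESeq2, limma-voom and the edgeR likelihood ratio test also called 0 of the 16, with smallest adjusted p values of 0.770, 1.000 and 0.654, and each had 2 at an unadjusted p under 0.05.

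The median log2 fold change of the 16 genes was -0.056, with the middle of the distribution between -0.23 and 0.10, against a median of -0.0014 over all 11265 genes and 0.0045 over the 951 genes tested on chromosome 11 without *Tspoap1*, the 16 included. In a narrower window of 250 kb the median of 10 genes was 0.042, and in a wider one of 1000 kb that of 24 genes was -0.056. None of the 16 had all knockouts above all wild type mice, and 2 had all knockouts below, against 2.79% of all genes. The 95% interval lay above 0 for 0 of the 16 and below 0 for 2. The highest upper bounds were those of *Mir142b* (1.67), *Rnf43* (1.49), *Supt4a* (1.27) and *Mks1* (1.07), so for these a rise of about 2 times could not be told from none.

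**Figure D3:**
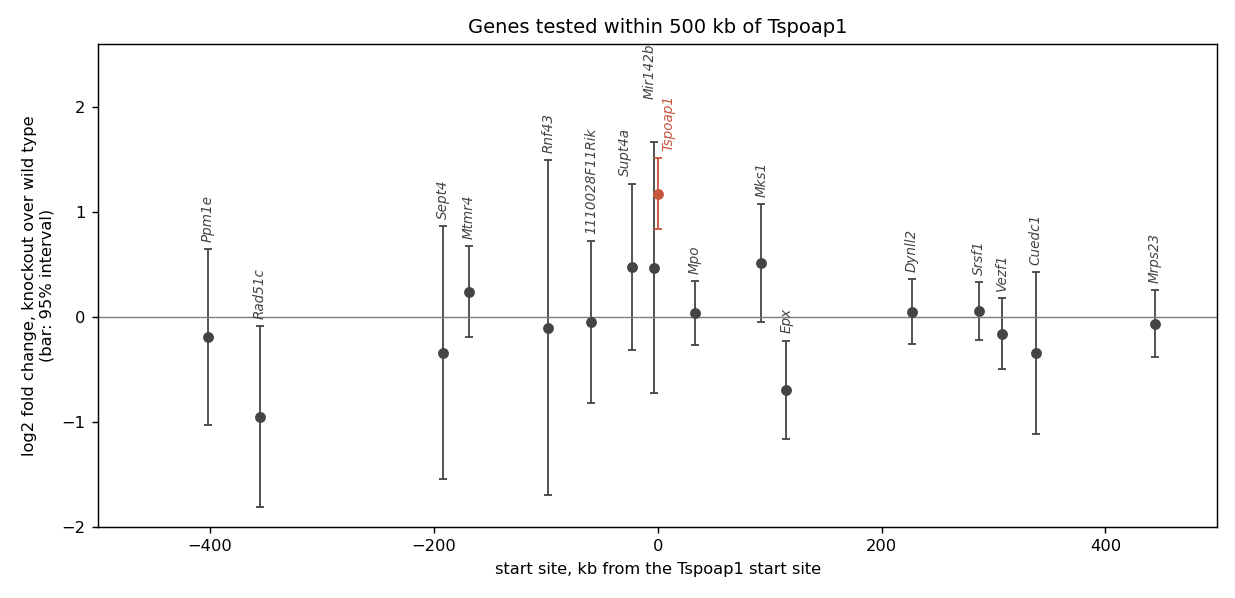
Log2 fold change, knockout over wild type (vertical axis), with its 95% interval as a bar, of the 17 genes tested within 500 kb, by the distance in kb of their start site from that of *Tspoap1* (horizontal axis). *Tspoap1* (red) stood at 1.17, and the 16 others ranged from -0.95 to 0.51, with 0 intervals wholly above 0. *Tspoap1* was chosen for its value, so it is no independent mark for the others.

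The genes with an unadjusted p under 0.05 in the fit of all mice went the other way. *Epx*, eosinophil peroxidase, ends 196 bases from the end of *Mks1* and is transcribed towards it. It stood at 29.3, 34.4 and 26.5 CPM in the wild type and at 22.9, 13.9, 17.5 and 19.9 CPM in the knockout mice, where every value was below every wild type one. The log2 fold change was -0.70 ± 0.22 (SE), with p = 0.00599 and an adjusted p of 0.999 (edgeR; exact permutation p = 0.0571). Across 8 eosinophil, basophil and mast cell markers tested, *Epx* included, 8 were lower and 0 passed the adjusted threshold. Their summed level was 2719 to 2850 CPM in the wild type and 1872 to 2555 CPM in the knockouts, and none of the 9 markers in the tables was at 0. Their part in the value of *Epx* was not tested. *Rad51c*, a recombination mediator with its start at -355.6 kb, stood at 8.75, 10.9 and 10.3 CPM in the wild type and 7.37, 2.28, 7.27 and 3.48 CPM in the knockouts (log2 fold change -0.95 ± 0.41 (SE), exact permutation p = 0.0857, adjusted p = 0.999, edgeR).

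The level of *Tspoap1* was set beside markers of the other cells that a lin- fraction can hold. Neutrophil lineage markers summed to 16361 to 18757 CPM in the wild type and 18632 to 33693 CPM in the knockout mice, with 10 of 13 higher, a median log2 fold change of 0.37, 0 with an unadjusted p under 0.05 and no marker at 0. The sum was above all wild type mice in knockouts 1, 3 and 4, at 22317, 33693 and 20640 CPM, and knockout 2, at 18632 CPM, lay just under the highest wild type. Of 11 monocyte and macrophage markers 3 were higher and 8 lower, and of 9 stem and progenitor markers tested 2 were higher and 7 lower. Of the remaining lists, the erythroid markers had 2 higher and 6 lower, the megakaryocyte markers 4 and 2, the B lineage markers 4 and 5, the T and NK cell markers 4 and 6, and the dendritic cell precursor markers 4 and 6. The megakaryocyte markers summed to 890.5 CPM in knockout 4, the mouse with the most *Tspoap1*, against 104.3 to 190.1 CPM in the other knockouts and 227.4 to 370.5 CPM in the wild type mice. Without knockout 4 the log2 fold change of *Tspoap1* was 1.07. No marker of any list passed the adjusted threshold (edgeR; at an unadjusted p under 0.05 there were 4 monocyte and macrophage, 3 eosinophil, basophil and mast cell, 2 B lineage and 2 T and NK cell markers, of 11, 8, 9 and 10 tested, against 3.63% of all genes). The part of cell composition in the level of *Tspoap1* was not tested.

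The partners of each protein were then examined from lists written with earlier results of these data known. *Tspo*, the mitochondrial partner for which *Tspoap1* is named, was abundant in both genotypes, at 324.5 ± 29.9 CPM (SD, n = 3) in the wild type and 315.1 ± 32.2 CPM (SD, n = 4) in the knockouts (log2 fold change -0.043, adjusted p = 0.999, edgeR). Of 16 genes of TSPO and its partners, 9 were higher and 7 lower, with a median log2 fold change of 0.038 and 0 at an unadjusted p under 0.05. The 2 of 16 whose knockouts lay below all wild type mice, against 2.79% of all genes, were *Star*, which carries cholesterol into mitochondria (log2 fold change -0.85 ± 0.50 (SE)), and *Fdx1*, the electron donor of steroidogenic cytochromes P450 (-0.37 ± 0.18 (SE)).

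Most of the synaptic partners had few or no reads in these cells. Of 28 genes of RIM-binding proteins and active zone partners, 5 had no read, among them *Rimbp2* and the RIM gene *Rims1*, and only 13 passed the filter, 6 higher and 7 lower with a median of -0.087. The 2 of 13 with an unadjusted p under 0.05, against 3.63% of all genes, were both higher. *Cacnb1*, a beta subunit of voltage-gated calcium channels, stood at 1.39 ± 0.587 CPM (SD, n = 3) in the wild type and 4.78 ± 1.04 CPM (SD, n = 4) in the knockouts, with all knockouts above, as in 2.37% of all genes. On 109 reads in all, its log2 fold change was 1.74 ± 0.56 (SE) (p = 0.00595, adjusted p = 0.999, edgeR; exact permutation p = 0.0286). *Ppfia4*, a liprin-alpha scaffold, stood at 85.0 ± 7.91 CPM (SD, n = 3) and 110.2 ± 21.8 CPM (SD, n = 4), with 3 of 4 knockouts above all wild type mice. Its log2 fold change was 0.37 ± 0.16 (SE) (p = 0.0340, adjusted p = 0.999, edgeR; exact permutation p = 0.143).

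The families of the neighbours gave no call at the adjusted threshold either (edgeR, smallest adjusted p = 0.999 in each). Only *Hdgfl2* and *Tspoap1* passed it over all genes, so the lack of calls says little about the families. Of 21 genes of the ciliary transition zone, to which *Mks1* belongs, 8 were higher and 13 lower with a median of -0.10. At an unadjusted p under 0.05 there were 2 of 21, against 3.63% of all genes. These, *Rpgrip1l* (log2 fold change -0.74 ± 0.34 (SE)) and *Cep290* (-0.71 ± 0.32 (SE)), were lower, in the opposite direction to the value of *Mks1*. The myotubularins had 6 higher and 6 lower of 12 with a median of -0.0014, and 0 with an unadjusted p under 0.05. Of 8 genes of the *Rnf43* and R-spondin axis of Wnt signalling 4 were higher and 4 lower, among them *Znrf3*, the paralog of *Rnf43*, at 0.17 ± 0.34 (SE), and 0 reached p under 0.05. Of the heat shock factors 3 were tested, 1 higher and 2 lower with *Hsf1* at -0.17 ± 0.26 (SE), and 0 reached p under 0.05. Of the 5 haem peroxidases only *Mpo* and *Epx* passed the filter.

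Finally, genes whose level followed that of *Tspoap1* over the 7 mice were listed, as a description, by Pearson's r of log2(CPM + 1). Because the genotypes separate for *Tspoap1*, a gene with a genotype difference can rank high here. The 10 most alike were *Nlrx1*, *Cbwd1*, *Rras*, *BC049762*, *Cacnb1*, *Mast2*, *Fut1*, *Tnf*, *Itsn1* and *Elovl7*, with r from 0.98 to 0.94. All knockouts were above all wild type mice for 10 of 10, against 2.37% of all genes, which the choice of *Tspoap1* and of the measure favours. Only *BC049762* and *Cacnb1* are also on chromosome 11. *Nlrx1*, a NOD-like protein of mitochondria, kept an r of 0.88 when the mean of each genotype was taken out, whereas *Tnf*, the inflammatory cytokine, kept 0.076. The least alike were *Trim12c*, *Samd3* and the deleted *Hdgfl2*, at -0.96.

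For the genes near *Tspoap1* these correlations largely restate the overlap of the genotypes given above and add no separate evidence on the genotype difference. Over the 16 tested within 500 kb, r ran from -0.83 for *Rad51c* to 0.59 for *Supt4a*, and the best of them ranked 879 of 11264 genes. *Mks1* had an r of 0.57, *Mtmr4* 0.28, *Mpo* 0.27, *Rnf43* -0.20 and *Epx* -0.81. With the mean of each genotype taken out, r ran from -0.65 for *Rad51c* to 0.66 for *Supt4a*. It was then 0.56 for *Mpo*, 0.035 for *Mks1* and -0.26 for *Mtmr4*. All points share the 7 libraries and their scaling.

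**Figure D4:**
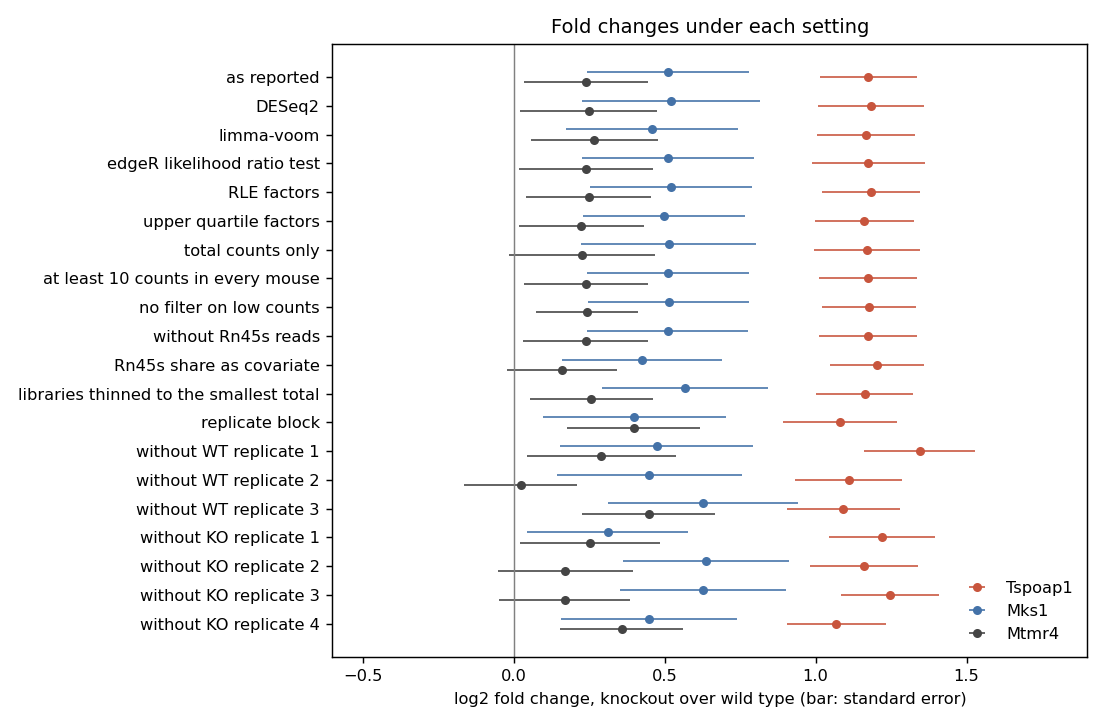
Log2 fold change, knockout over wild type, with its standard error as a bar (horizontal axis), of *Tspoap1* (red), *Mks1* (blue) and *Mtmr4* (grey) as reported and under 19 other settings (vertical axis). *Tspoap1* kept between 1.07 and 1.35, *Mks1* lay between 0.31 and 0.64 and *Mtmr4* between 0.023 and 0.45.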

How the data were processed

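Total RNA (500 ng) of lin- bone marrow cells from 3 wild type and 4 knockout mice was sequenced by the authors with the QuantSeq 3′ kit. The authors deposited raw read counts per gene symbol for each mouse, made with STAR on GRCm38 and Ensembl annotation. The strand counted is not given in the sources used here. The 5 tally rows that name no gene, of which reads on no feature made up 27.0 to 31.6% of all tallied reads, were left out. Counts were fitted with edgeR 4.0.16 in R 4.3.3 (robust quasi-likelihood, TMM, filterByExpr, genotype alone), with Benjamini-Hochberg adjustment over 11265 genes and a threshold of 0.25 as in the study. The steps were tested on simulated data. Neighbours were also tested by two-sided exact permutation of log2(CPM + 1) over the 35 splits of the mice, whose smallest p is 0.0286. Positions came from GENCODE M21, which held 97.6% of the symbols, and promoters from RefSeq. Replicates of a genotype differed beyond sampling noise in every pair. The members and lists were chosen with earlier results of these data known. Named were the 6 genes, the deleted gene, tested genes within 500 kb, tested members of the lists of families and markers, and the 10 most and 3 least correlated genes. DESeq2 1.42.0, limma 3.58.1, other scalings and filters, *Rn45s* handling, thinning, a replicate block and leaving out each mouse were alternatives.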

Additional observations from a re-analysis of the deposited data

Results flagged for a closer look

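Among 88 results whose 4 knockout values were examined for a single distant mouse, 3 were found, and chance alone gives about 4.4. *Vdac2*, a channel of the outer mitochondrial membrane and a TSPO partner, stood at 390.9 CPM in knockout 3 and at 339.1 to 342.5 CPM in the other knockouts. *Hsf2*, a heat shock factor, stood at 35.8 CPM in knockout 3 and at 26.5 to 28.1 CPM in the others. *Tmem67*, a ciliary transition zone receptor, stood at 6.71 CPM in knockout 4 and at 2.49 to 3.10 CPM in the others. Of the 6 genes of the locus 5 were examined, *Hsf5* having no read, and none of the 5 was among them.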

How the results depend on the processing

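The log2 fold change of *Tspoap1* lay between 1.07 and 1.35 when each mouse was left out, without knockout 4 and without wild type 1 respectively, and between 1.08 and 1.20 under the 12 other settings. The count of 0 called genes near it held under every tool, scaling and filter and without each mouse, though few genes were called in any setting. The median of the genes near it stayed between -0.19 and 0.042. *Mks1* and *Mtmr4* stayed positive and uncalled, from 0.31 to 0.64 and from 0.023 to 0.45. *Rnf43*, with 94 reads, turned to 0.16 with the *Rn45s* share as a covariate and to 0.26 after thinning, was -1.09 in limma-voom, and ran from -0.56 to 0.32 without each mouse. *Lpo*, with 30 reads, ran from -1.68 to 0.084. *Hsf5* had no value under any setting, nor had *Rnf43* and *Lpo* with at least 10 counts in every mouse. The cause of these shifts was not tested. Other scalings moved the median of all genes by less than 0.02.

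Over all genes, 2 passed the adjusted threshold, against 21 in DESeq2, 29 in the likelihood ratio test, 41 without a filter, 6 with the *Rn45s* covariate, 3 in limma-voom, 3 after thinning, 1 with at least 10 counts, 1 with the replicate block and 2 to 7 without each mouse. No pairing by replicate number was seen, since deviations of same-numbered mice correlated at -0.21 to -0.025, against -0.12 to 0.22 for unlike numbers. The mice are too few to exclude a pairing. With the replicate block *Tspoap1* was at 1.08, *Mks1* at 0.40, *Mtmr4* at 0.40, *Rnf43* at -0.50 and *Lpo* at -1.08, the median of the genes near *Tspoap1* was within the range above, and 0 of them were called.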
